A study of Mus musculus with 32 samples.

Results

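Among pools of mouse germinal vesicle (GV) oocytes, immature oocytes still in meiotic prophase, 4 held much RNA of granulosa cells and 3 held little. These 7 libraries were all the GV libraries of sequencing batch 2, out of 32 libraries in the series. The sets were drawn from the measured level of 5 granulosa markers, Inhba, Inha, Hsd3b1, Lhcgr and Foxl2, so every difference between rich and poor pools is given as a description with no test. The rich pools were D2 replicate 1, F1 replicate 2, B6 replicate 2 and F1 replicate 3, and the poor pools were F1 replicate 1, B6 replicate 1 and D2 replicate 2. Values below are listed in that order of libraries.

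B6 and D2 are inbred strains of mouse and F1 is their B6xD2 hybrid. All females were 8 to 12 weeks old, and the labels name no further allele or agent. A library stands for 9 to 20 oocytes pooled from 1 mother, which the submitters count as 1 biological replicate. GV oocytes were collected in medium with the phosphodiesterase inhibitor IBMX, which holds meiotic arrest. Metaphase II (MII) oocytes, the mature eggs arrested before fertilization, were collected in M2 medium too, with no inhibitor named, and acid Tyrode's solution removed the zona pellucida at both stages. How cumulus cells were taken off, and any hormone given to the females, was not given in the sources used here. For comparison there were the 7 MII libraries of batch 2 (2 of D2, 2 of F1 and 3 of B6), the 9 GV libraries of batch 1 (3 of each strain) and the 9 MII libraries of batch 1.

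Granulosa cells are the somatic cells of the ovarian follicle. Those next to the oocyte, the cumulus cells, reach it through the zona with thin projections that end in gap junctions, and mural granulosa cells line the follicle wall, make steroids and inhibins and answer the hormones FSH and LH. Near the end of its growth the oocyte all but stops transcription, so that most RNA changes up to MII come from decay or altered tailing of stored messages. In a pooled lysate, fewer granulosa cells and less RNA per granulosa cell cannot be told apart.

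The marker level, the mean log2 CPM (counts-per-million, with a prior count of 3) of the 5 markers, was 7.22, 5.32, 7.12 and 4.18 in the rich pools and 1.42, 0.73 and 1.93 in the poor pools. F1 replicate 3 was the lowest pool of the rich set and D2 replicate 2 the highest of the poor set. The poor pools still lay above the 7 MII libraries of their batch, which ran from -0.96 to 0.45, and the rich pools spanned nearly the same levels as the 9 GV libraries of batch 1, from 4.96 to 7.09. The 5 markers took 0.316%, 0.0593%, 0.335% and 0.0240% of all counts in the rich pools, and at most 0.00657% in a poor pool. Depth was 23.7 to 39.7 M counts in the rich and 18.7 to 31.1 M in the poor pools. Between 20699 and 23400 genes had a count in a rich pool and between 19096 and 20166 in a poor pool, with no overlap between the sets. Genes of the oocyte lists took 2.67% to 3.24% of counts in rich and 2.94% to 3.32% in poor pools, so both sets were oocyte libraries by these markers.

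The markers differed in how sharply they parted the sets. Inhba (13:16004256-16031609 in GRCm38.p6), the subunit shared by inhibin A and activin A, measured 1741, 270.0, 1946 and 47.9 CPM in the rich and 19.4, 66.7 and 27.0 CPM in the poor pools. It was the marker on which the sets overlapped, since the rich F1 replicate 3 lay below the poor B6 replicate 1. Hsd3b1 (3:98842356-98859794), which turns pregnenolone into progesterone, measured 1082, 279, 1030 and 154 CPM in rich and 16.2, 6.61 and 6.27 CPM in poor pools. Every rich pool was above every poor pool, and the poor pools lay within the MII range of 2.45 to 20.1 CPM.

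Lhcgr, the receptor for luteinizing hormone (17:88716384-88792059), measured 65.4, 37.1, 248 and 12.6 CPM in rich and 2.02, 0.194 and 3.92 CPM in poor pools. Inha, the inhibin alpha subunit (1:75507077-75510366), measured 82.6, 21.4, 24.9 and 9.49 CPM in rich and 0.655, 0.777 and 1.36 CPM in poor pools. Neither overlapped between the sets, and the B6 pool led for Lhcgr while the D2 pool led for Inha. Foxl2, the transcription factor that holds granulosa identity (9:98955607-98958126), was lower throughout, at 7.15, 1.60, 4.07 and 2.03 CPM in rich pools. The poor pools had 0.164, 0 and 0.681 CPM, from 3, 0 and 20 counts, and all 7 MII libraries of batch 2 had 0.

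**Figure D1:**
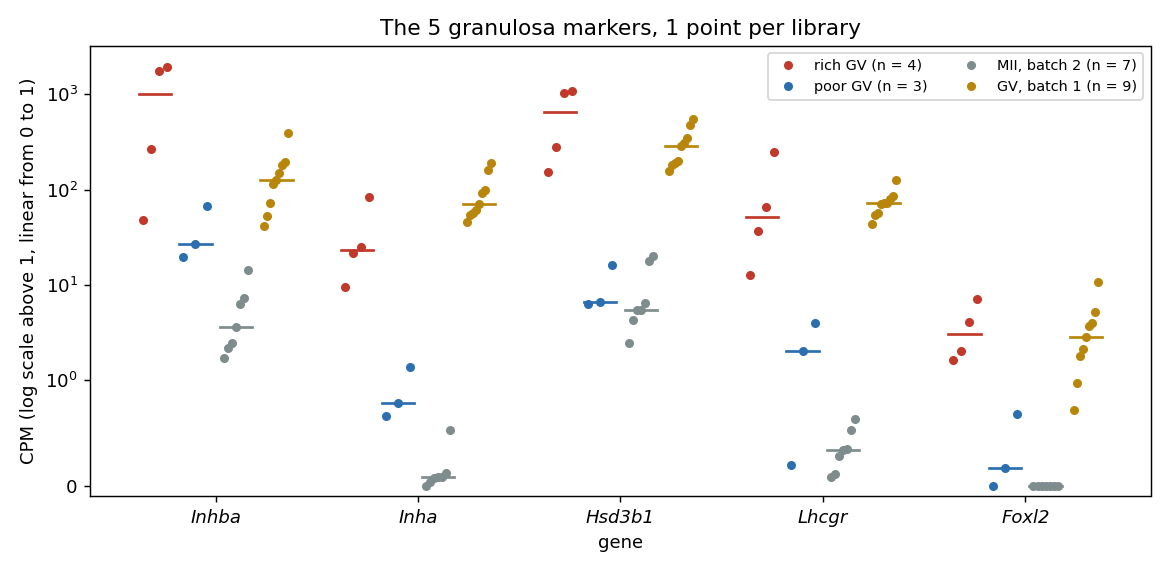
CPM of the 5 granulosa markers (vertical axis, logarithmic above 1 and linear below) in each library, with a bar at the median of each group. For Inha and Lhcgr only 1 rich pool, D2 replicate 1, lies within the range of the 9 GV libraries of batch 1, and for Inha the other rich pools (9.49 to 24.9 CPM) lie below it. Inhba is the marker on which a rich pool (47.9 CPM) lies below a poor one (66.7 CPM).

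The rich pools were not copies of each other at different strengths. The ratio of Inhba to Hsd3b1 counts was 1.61, 0.969 and 1.89 in D2 replicate 1, F1 replicate 2 and B6 replicate 2, and 0.312 in F1 replicate 3. In the poor pools it was 1.20, 10.1 and 4.32, so the poor B6 replicate 1 held Inhba with little Hsd3b1. Akr1c18, the enzyme that inactivates progesterone, measured 140 CPM in D2 replicate 1 and 16.8 CPM in F1 replicate 2, against 0.986 and 0.507 CPM in the other rich pools. Star, which carries cholesterol into mitochondria, measured 31.2, 10.2, 137 and 3.75 CPM in rich and 0.437, 0.729 and 0.341 CPM in poor pools, and the B6 pool was the highest by far. St3gal4, a sialyltransferase picked out after its values were seen, showed the same B6 lead at 482 CPM against 13.2 to 27.2 CPM in the other rich pools.

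The upstream windows of 4 genes are printed for reference, namely a marker gene (Hsd3b1), the gene with the largest difference between the sets (Inhbb), the gene with the lowest adjusted p in the test below (Gja1) and the noncoding RNA Xist. Each is the 250 bases before the start that RefSeq lists, 5′ to 3′ on the gene's strand in GRCm38.p6, with matches to a searched motif in capitals. Hsd3b1 lies at chr3:98859795-98860044 on the minus strand, Inhbb at chr1:119422249-119422498 on the minus strand, Gja1 at chr10:56377050-56377299 on the plus strand and Xist at chrX:103483234-103483483 on the minus strand.
Hsd3b1: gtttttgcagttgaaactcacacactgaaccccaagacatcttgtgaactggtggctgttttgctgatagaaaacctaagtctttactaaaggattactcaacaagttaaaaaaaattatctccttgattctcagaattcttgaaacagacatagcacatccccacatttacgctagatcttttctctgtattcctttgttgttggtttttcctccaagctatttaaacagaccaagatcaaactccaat
Inhbb: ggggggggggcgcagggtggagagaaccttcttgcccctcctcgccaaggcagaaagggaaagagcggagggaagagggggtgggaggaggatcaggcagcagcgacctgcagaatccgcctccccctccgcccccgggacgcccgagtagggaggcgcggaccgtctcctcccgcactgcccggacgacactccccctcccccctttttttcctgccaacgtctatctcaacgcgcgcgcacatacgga
Gja1: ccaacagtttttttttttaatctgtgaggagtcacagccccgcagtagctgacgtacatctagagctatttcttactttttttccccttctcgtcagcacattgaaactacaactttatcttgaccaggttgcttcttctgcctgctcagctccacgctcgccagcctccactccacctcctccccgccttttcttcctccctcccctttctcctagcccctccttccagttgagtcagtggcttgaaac
Xist: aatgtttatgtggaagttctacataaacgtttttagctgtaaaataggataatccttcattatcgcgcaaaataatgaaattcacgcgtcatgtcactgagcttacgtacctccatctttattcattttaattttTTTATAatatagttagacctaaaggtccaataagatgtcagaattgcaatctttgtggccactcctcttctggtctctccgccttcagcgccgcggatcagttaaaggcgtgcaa
The motifs searched on both strands were AGGTCA, the half-site read by NR5A1 and related nuclear receptors, TGACGTCA, the cyclic AMP response element, and TATAAA, the TATA box. They occur in 14.0%, 1.55% and 12.4% of all 32851 windows of the same length. The one match was TATAAA on the opposite strand of the Xist window, 115 bases before the start, and nothing about any factor follows from a missing match.

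Most of the genes that parted the sets by 2-fold or more were higher in the rich pools, by a rule that used the same libraries as the split. Of 13886 genes with at least 1 CPM in at least 3 of the 7 libraries, 636 (4.58%) were higher in every rich than in every poor pool and by at least 2-fold in mean log2 CPM. In the other direction 35 (0.252%) met the same rule. Without the 2-fold condition 776 (5.59%) were higher and 465 (3.35%) lower without overlap. Leaving out 1 of the 7 libraries gave 529 to 896 higher and 55 to 135 lower by the rule with it. The split was made on granulosa genes of the same libraries, so nothing is read from these counts. The genes called higher, apart from the markers, took 1.33%, 0.410%, 1.38% and 0.355% of the counts of the rich pools and 0.108%, 0.0834% and 0.0977% of those of the poor pools. The MII libraries of batch 2 gave 0.0897% to 0.141%, a range that holds all but the lowest poor pool, and the GV libraries of batch 1 gave 0.49% to 1.61%. The log2 difference depends on the prior count where poor pools are close to 0, as for 427 of the 636 genes, whose mean was under 1 CPM in the poor pools.

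**Figure D2:**
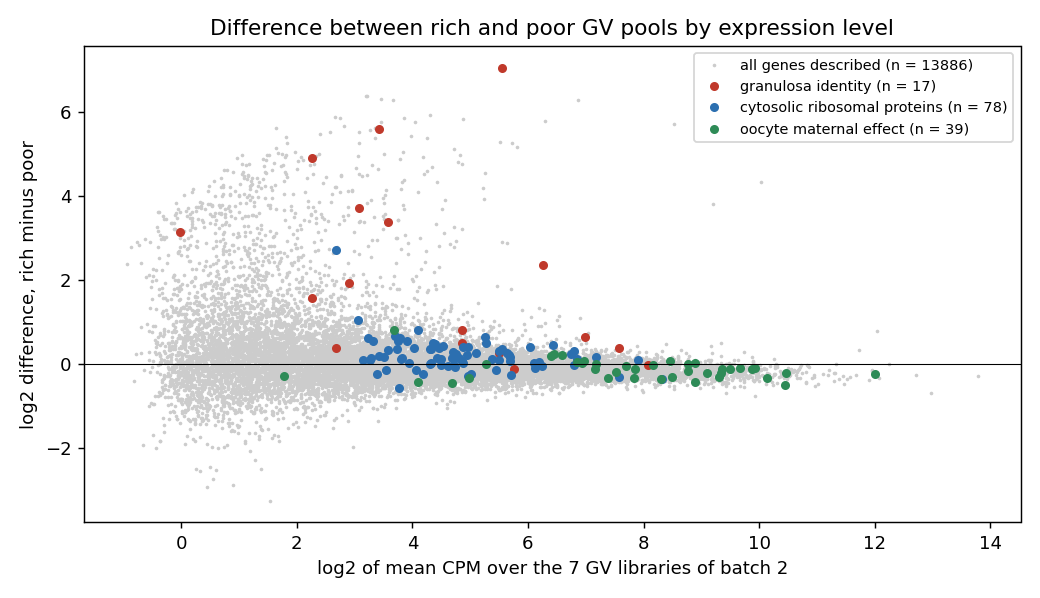
Log2 difference between rich and poor pools (vertical axis) against the log2 of mean CPM over the 7 libraries (horizontal axis) for the 13886 genes described, with the members of 3 lists coloured. Granulosa identity genes reach 7.06, while the ribosomal protein and oocyte maternal genes lie near 0 apart from Rpl9 at 2.70.

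Among secreted signals, Inhbb, the other activin and inhibin beta subunit (1:119415463-119422248), had the largest difference, 7.06 on the log2 scale. It measured 194, 31.8, 97.1 and 5.24 CPM in rich and 0.655, 0.0486 and 0.170 CPM in poor pools. Fst, which encodes the activin-binding protein follistatin, measured 34.5, 9.34, 28.0 and 3.01 CPM in rich and 0.382, 0 and 0.272 CPM in poor pools. Both genes had the same order of rich pools, with D2 replicate 1 highest and F1 replicate 3 lowest. Vegfa, the main endothelial growth factor, was at 20.4, 5.69, 18.4 and 2.08 CPM in rich and at 0.164, 0 and 0 CPM in poor pools.

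Of the 20 genes of the granulosa identity list, 17 were described and 6 of them were called higher, namely Nr5a1, Hsd17b1, Fst, Inhbb, Wt1 and Nap1l5, with none lower. The median log2 difference was 1.56, against -0.04 over all genes described. A gene that is high in rich pools alone passes the filter of 1 CPM in 3 libraries, while one that is low there must reach it in all 3 poor pools. Counts and medians over the described members of this and the other somatic lists are therefore tilted upward and are given as a description. Over all genes described, 4.58% were called higher and 0.252% lower, and these shares belong beside the counts of every list below. Nr5a1, the nuclear receptor that drives steroid enzyme genes, measured 13.7, 4.81, 11.0 and 3.13 CPM in rich and 1.04, 0 and 0 CPM in poor pools. Hsd17b1, which makes estradiol from estrone, measured 55.1, 4.66, 17.9 and 3.01 CPM in rich and 1.31, 0.486 and 1.33 CPM in poor pools. For both genes the lowest rich pool was more than 2 times the highest poor pool.

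Several genes often used as granulosa markers did not part the sets. Esr2, the estrogen receptor beta, measured 46.3 to 55.0 CPM in rich, 53.4 to 63.4 CPM in poor and 31.6 to 64.4 CPM in MII libraries of batch 2. Gata4, a gonadal transcription factor, measured 39.9 to 65.1 CPM in rich, 36.1 to 45.3 CPM in poor and 28.1 to 64.5 CPM in MII libraries. Cyp19a1, the aromatase that makes estrogen, measured 15.0 to 44.4 CPM in rich, 16.7 to 34.3 CPM in poor and 7.56 to 49.6 CPM in MII libraries. For these genes the 3 sets of libraries overlapped throughout. Amh, the anti-Müllerian hormone of growing follicles, did not pass the filter and was at 0.0517 to 0.711 CPM in rich and at 0 in the poor pools.

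Of the 18 cumulus and expansion genes, 8 were described, with a median of 2.79. Called higher were 5 of these 8, among them Has2, Vcan, Npr2 and Cd44, and none lower, where 4.58% of all genes described were higher. The other 10 of the 18 did not pass the filter, and Npr2 passed it through the rich pools alone. Vcan, the matrix proteoglycan versican, measured 176, 28.3, 105 and 8.84 CPM in rich and 1.91, 1.07 and 0.613 CPM in poor pools. Npr2, the receptor through which C-type natriuretic peptide holds meiotic arrest, measured 9.80, 1.99, 8.13 and 1.86 CPM in rich and 0.0546, 0 and 0 CPM in poor pools. Not all expansion genes were higher in rich pools, as Has2 and Vcan were. Ptx3 was at no more than 0.164 CPM and Tnfaip6 at no more than 0.224 CPM in every pool.

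Of the 18 mural and luteinizing genes, 12 were described, 7 were called higher (Cyp11a1, Star, Scarb1, Sfrp4, Ptgfr, Lhcgr and Mt2) and none was called lower, with a median of 2.42. Cyp11a1, which cuts the side chain of cholesterol in the first step to steroids, measured 99.6, 30.4, 158 and 34.5 CPM in rich and 13.8, 5.97 and 7.59 CPM in poor pools. The poor pools again lay close to the MII range, here 4.93 to 12.8 CPM, apart from F1 replicate 1 just above it. Ptgfr, the prostaglandin F receptor of luteal cells, was at 15.0, 4.63, 15.7 and 1.41 CPM in rich and at 0.164, 0 and 0 CPM in poor pools. Among the 16 described genes of steroid synthesis 6 were called higher, all of them also on the lists above except Cyp17a1.

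Some genes of theca and stroma were also higher in the rich pools. Of 18 theca and stroma genes, 12 were described and 7 were called higher (Cyp17a1, Col1a1, Col1a2, Col3a1, Acta2, Rgs5 and Ogn), with a median of 2.82. Cyp17a1, the theca enzyme that makes androgens, measured 8.83, 3.03, 2.71 and 0.704 CPM in rich and 0.109, 0 and 0 CPM in poor pools. The theca hormone Insl3 and the smooth muscle gene Tagln were at 0 in all 7 pools. The summed list was 202 to 327 CPM in rich and 196 to 252 CPM in poor pools and hardly moved, because Myh11, with a mean of 188 CPM in rich and 220.0 CPM in poor pools, made up most of it. The part of theca and stroma RNA in the other differences was not tested. Of 20 blood, immune and endothelial genes, 7 were described and 1, Cd74, was called higher, where 4.58% of all genes described were. Their sum was 54.4 to 75.8 CPM in rich and 31.9 to 85.3 CPM in poor pools, and the globin Hbb-bs was at most 0.123 CPM. Of 12 epithelial genes 2 were described and neither was called, with sums of 3.80 to 6.62 CPM in rich and 3.74 to 5.07 CPM in poor pools.

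The nuclear long noncoding RNAs Xist, Neat1 and Malat1 were higher in every rich than in every poor pool. Xist (X:103460373-103483233), the RNA that coats the inactive X chromosome of female somatic cells, measured 426, 48.1, 273 and 54.4 CPM in rich and 13.6, 0.486 and 0.511 CPM in poor pools. Neat1, the scaffold of nuclear paraspeckles, measured 15.8, 8.38, 109 and 3.52 CPM in rich and 0.764, 0 and 0.0681 CPM in poor pools. For both RNAs F1 replicate 1 was the highest poor pool. Malat1, a nuclear speckle RNA picked out after its values were seen, was at 2601, 721, 3285 and 507 CPM in rich and at 81.5, 71.6 and 49.7 CPM in poor pools, within the MII range of 36.1 to 186 CPM.

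Of the 14 described genes of contact between oocyte and granulosa cells, Gja1, Npr2 and the actin bundler Fscn1 were called higher and none lower, with a median of 0.03. Gja1, the connexin of gap junctions among granulosa cells (10:56377300-56390419), measured 221, 37.3, 113 and 15.4 CPM in rich and 2.24, 0.583 and 3.03 CPM in poor pools. Gja4, the connexin that the oocyte places in its junctions with cumulus cells, measured 429, 407, 204 and 361 CPM in rich and 423, 173 and 463 CPM in poor pools and overlapped completely.

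Of the 23 described genes of cytoskeleton and matrix 10 lay higher without overlap, 8 of them by at least 2-fold (Actb, Vim, Cald1, Myl9, Lama1, Fn1, Sparc and Hspg2), and the laminin subunit Lamb1 lay lower. Vim, the intermediate filament of mesenchymal cells, measured 15.7, 5.74, 10.6 and 2.56 CPM in rich and 0.0546, 0 and 0.647 CPM in poor pools. Actb, which oocytes express as well, measured 120, 59.9, 82.4 and 86.9 CPM in rich and 39.8, 35.5 and 42.3 CPM in poor pools, while MII libraries of batch 2 ran from 44.7 to 96.7 CPM. Among 20 antioxidant genes Gstm1, Mgst1 and Prdx6 were called higher, and the glutathione transferase Gstm1 measured 32.8, 14.2, 32.3 and 9.24 CPM in rich and 0.600, 0.0486 and 0.0341 CPM in poor pools. Of the 18 stress and immediate early genes described 2 were called higher, Jun and Myc. Eno1 was called higher among 15 glycolysis genes, where 4.58% of all genes were, so that 1 of 15 is near the background.

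Oocyte transcripts differed little. None of the 13 zona and secreted genes and none of the 39 described maternal-effect genes was called in either direction, with medians of -0.25 and -0.12. Without the 2-fold condition 2 genes of each list lay lower without overlap and none higher, where 3.35% of all genes lay lower. All 13 zona and secreted genes had differences below 0, from -0.51 to -0.02. Gdf9, a growth factor that the oocyte sends to its cumulus cells, measured 3344, 3589, 3611 and 3100.1 CPM in rich and 4673, 4654 and 3946 CPM in poor pools, a difference of -0.37 without overlap. Dppa3, a maternal chromatin protein, measured 1159, 1339, 1312 and 934 CPM in rich and 1672, 2056 and 1350.3 CPM in poor pools, a difference of -0.51. For Dppa3 the highest rich and the lowest poor pool lay close together. Scaling by total counts alone moved the median of all genes from -0.04 to 0.10 and that of the maternal-effect list to 0.02, so no direction is given for that list. Scaling on the oocyte lists moved the median of all genes to 0.19, and the maternal-effect median to 0.11 and Gdf9 to -0.14. Those lists hold these same genes, so their shift under that scaling is fixed by it.

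The ribosomal protein genes, which are strongly expressed in both kinds of cell, had a median of 0.15 over 78 genes. Of these 6 lay higher without overlap and none lower, and Rpl9 was the one called, at 17.5, 5.61, 14.3 and 3.89 CPM in rich and 0.982, 1.17 and 1.63 CPM in poor pools. Near-identical copies could divide its reads. The 74 respiratory chain genes had a median of -0.12, with 2 higher and 4 lower without overlap and none called, and their median turned to 0.11 under scaling on the oocyte lists. The 31 proteasome genes had a median of -0.17, and Psmd13 was called higher. Over all genes 5.59% lay higher and 3.35% lower without overlap and 4.58% were called higher, so the counts of these 3 lists are close to the background or below it.

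**Figure D3:**
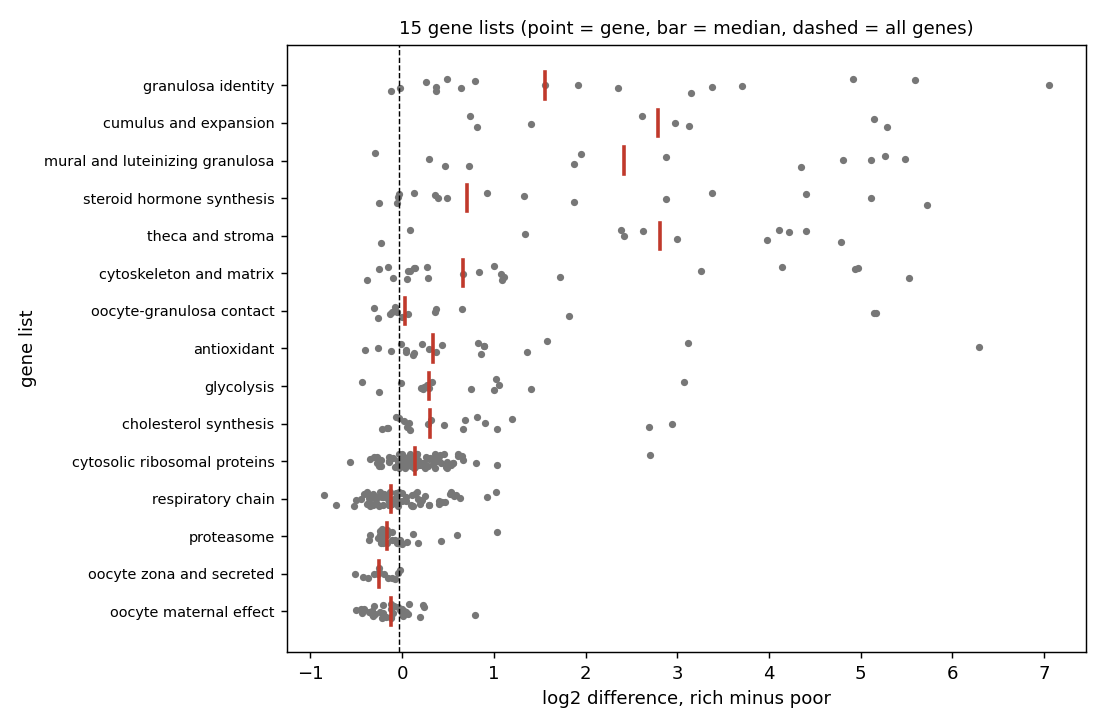
Log2 difference between rich and poor pools (horizontal axis) for the described members of 15 lists, with a red bar at each list's median and a dashed line at the median of all genes. The medians run from 2.82 for theca and stroma to -0.25 for zona and secreted genes, and the granulosa lists hold members near 0 as well as members above 5.

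Among the named genes that were lower in rich pools, differences were small beside those of the genes that were higher. Mapk11, a p38 kinase, measured 5.99, 3.70, 0.739 and 4.87 CPM in rich and 12.2, 7.48 and 20.2 CPM in poor pools, the largest such difference at -1.98. The poor pools were close to the MII range of 6.63 to 17.8 CPM. Mreg, which encodes melanoregulin, measured 15.2, 22.6, 14.3 and 15.0 CPM in rich and 33.0, 29.4 and 40.6 CPM in poor pools, a difference of -1.04. In the 9 GV libraries of batch 1 it ran from 6.72 to 19.1 CPM.

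The strains shared the direction of the main differences but not their size. The granulosa identity median was 2.60 within B6, 1.93 within D2 and 0.62 within F1, and the theca and stroma medians were 4.22, 3.62 and 1.47. Xist differed by 8.85 within B6, 9.44 within D2 and 1.90 within F1, where the poor pool held the most Xist of its set. The rule is thus met by a smaller gap in F1, which also supplied the lowest rich pool. The names of batch 2 libraries carry either of 2 prefixes, and each prefix held rich and poor pools. Within the first (2 rich, 1 poor) 520 genes were higher and 226 lower, and within the other (2 rich, 2 poor) 589 were higher and 207 lower, so that the share of calls that were higher was 69.7% and 74.0% in these smaller sets and 94.8% over all 7.

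The 9 GV libraries of batch 1 took no part in the split and gave a test. Each gene was regressed on the marker level of its library with strain as a covariate (edgeR quasi-likelihood test, two-sided, Benjamini-Hochberg adjusted over 18211 genes, with the 5 markers left out of the counts). At an adjusted p of at most 0.05, 57 genes (0.313%) rose with the marker level and 1 (0.00549%), Cpne5, fell. At an unadjusted p of 0.05, 1092 had a positive and 491 a negative slope. Of the 57 genes 54 were described in batch 2, and 44 of those, or 81.5%, were among the 632 genes called higher in rich pools apart from markers, where 4.55% of all genes were. These 44 are 6.96% of the 632. All 54 had a higher mean in the rich than in the poor pools. Of the 632 genes 557 (88.1%) had a positive slope, against 43.6% of the genes called in neither direction.

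Gja1 had the lowest adjusted p, with a slope of 1.18 ± 0.11 (SE) in log2 CPM per unit of marker level and an adjusted p of 0.00138 by edgeR. Its level ran from 28.3 to 228 CPM in the 9 libraries. Inhbb rose by 1.30 ± 0.15 (adjusted p = 0.00368, edgeR) and ran from 7.60 to 61.8 CPM. Next to Rpl9, the genes with the lowest p included Socs2, a brake on cytokine signals, with 1.24 ± 0.14, the mitochondrial carrier Ucp2 with 1.27 ± 0.14 and the insulin receptor substrate Irs1 with 1.32 ± 0.16. Among the lists, 5 of 20 granulosa identity genes rose (Nr5a2, Hsd17b1, Fst, Inhbb and Nap1l5), as did 2 of 11 cumulus genes (Vcan and Npr2), 2 of 78 ribosomal protein genes (Rpl9 and Rps23), Actb and Vim of 28 cytoskeleton genes, and Gapdh and Eno1 of 17 glycolysis genes. Gapdh and Eno1 have near-identical copies in the table, so the division of their reads is uncertain. At the unadjusted threshold given above, 40 of the 78 ribosomal protein genes had a positive slope by edgeR and 0 a negative one. DESeq2 called 7 of the 78 as rising after adjustment. The median slope of the ribosomal protein list was 0.27, against -0.00096 over all genes.

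None of 16 theca and stroma genes and none of 17 mural genes beside Lhcgr passed in batch 1 by edgeR, with median slopes of 0.38 and 0.31 against -0.00096 over all genes. At an unadjusted p of 0.05 by edgeR, 4 theca and stroma genes and, with Lhcgr counted, 5 of 18 mural genes had a positive slope. Lhcgr is 1 of these 5 and part of the marker level, so its slope is partly built in. DESeq2 called 0 theca and stroma genes and 1 of the 18 mural genes, which again include Lhcgr. Xist had a slope of 0.52 ± 0.56 (adjusted p = 0.853, edgeR), with 24.7 to 221 CPM in these libraries, and Malat1 one of 0.51 ± 0.28 (adjusted p = 0.660, edgeR). Neither of these RNAs was thus shown to follow the 5 markers from library to library among pools that all held granulosa RNA. None of the 13 zona and secreted genes and none of the 39 maternal-effect genes passed by edgeR or DESeq2, and at an unadjusted p of 0.05 they gave 1 and 5 negative slopes and 0 positive ones.

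The count of slopes rested on few libraries. The highest marker levels were 7.09 in F1 replicate 5 and 6.57 in D2 replicate 3 of batch 1, against a median of 5.55. Without F1 replicate 5, 233 genes rose and 370 fell, and without both, 96 rose and 175 fell. Leaving out D2 replicate 3 gave 16 genes that rose, F1 replicate 2 gave 14, F1 replicate 3 gave 18, B6 replicate 4 gave 21 and D2 replicate 5 gave 37. Without both of the libraries with high levels, 34.8% of the described risers were called higher in rich pools, and 67.7% of the 632 genes had a positive slope against 46.0% of the genes called in neither direction. Gja1, Rpl9 and Socs2 passed in each of these fits, while Ucp2 and Irs1 did not pass without both (adjusted p = 0.0618 and 0.0570, edgeR).

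**Figure D4:**
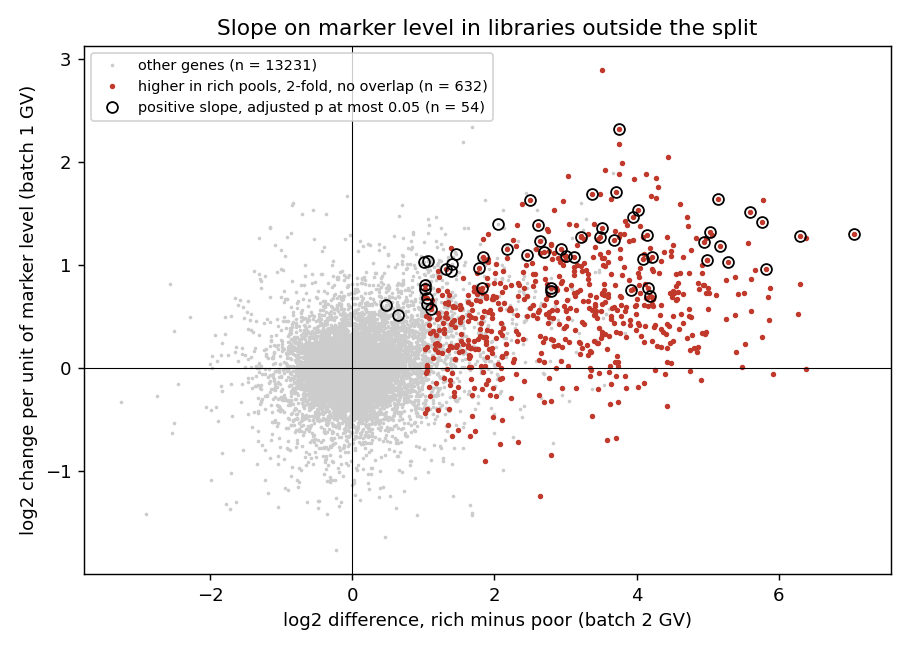
Slope on marker level in the 9 GV libraries of batch 1 (vertical axis, log2 per unit) against the log2 difference between rich and poor pools of batch 2 (horizontal axis), without the 5 markers. The 54 circled genes with adjusted p of at most 0.05 and a positive slope all lie to the right of 0, and 44 of them are among the 632 red genes.

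The GV pools also serve as the baseline of maturation, so the MII minus GV difference was fitted in batch 2 with all 7 GV libraries, with the 4 rich and with the 3 poor ones (edgeR, strain as a covariate). All of these fits share the 7 MII libraries, and the difference between them was not tested, since it is the difference between the sets. With all 7, 1699 genes (8.9%) were higher and 2552 (13.4%) lower in MII. With the rich pools 1611 (7.65%) were higher and 3133 (14.9%) lower, and with the poor pools 829 (4.31%) were higher and 1038 (5.4%) lower. The sets differ in number. With 3 rich pools, 1 of each strain, 2773 or 2718 genes were lower and 1477 or 1322 higher, depending on which F1 pool was used. The part of library number in these counts was not tested.

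The genes called higher in rich pools were chosen on these same libraries, so their counts here are a description. Of the 632 apart from markers, 521 were lower in MII than in the rich pools with a median of -3.40, and 5 of the 545 tested were lower than in the poor pools with a median of 0.38. With all 7 GV libraries 301 were lower, and this fell to 95 without B6 replicate 2 and to 157 without D2 replicate 1, the pools with the highest marker levels. The MII minus GV difference of Inhbb was -9.55 ± 0.72 log2 with the rich and -0.86 ± 1.77 with the poor pools (SE). That of Xist was -5.06 ± 0.58 with the rich and 1.13 ± 1.52 with the poor pools. Both were among the genes called on the gap between these sets, so no test is given.

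The ribosomal protein, respiratory chain, proteasome and maternal-effect lists gave like values with either baseline. Of 78 ribosomal protein genes 71 were lower in MII than in rich pools and 69 than in poor pools, with medians of -2.34 and -2.18. Rpl13, a protein of the large subunit, measured 22.0 to 25.2 CPM in rich, 18.2 to 23.5 CPM in poor and 0.873 to 2.17 CPM in MII libraries. Its difference was -3.95 ± 0.28 with rich and -3.73 ± 0.31 with poor pools (adjusted p = 7.73e-08 and 6.89e-07, edgeR). Of 74 respiratory chain genes 62 and 56 were lower, with a median of -1.72 in both fits, and of 31 proteasome genes 15 were lower in each. Of 39 maternal-effect genes 15 were lower and 10 higher with rich pools, and 14 lower and 6 higher with poor pools.

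Values of single oocyte genes were alike too. Omt2a, an oocyte gene with a near-identical neighbour Omt2b, measured 202 to 343 CPM in rich, 239 to 363 CPM in poor and 1601 to 2303 CPM in MII libraries, and rose by 2.97 ± 0.15 and 2.77 ± 0.13 log2 with the respective pools (adjusted p = 1.63e-09 and 1.38e-09, edgeR). Khdc3, a member of the subcortical maternal complex of the egg cortex, fell by 3.02 ± 0.15 and 2.75 ± 0.16 log2 (adjusted p = 1.69e-09 and 1.15e-08, edgeR). Chchd2, a mitochondrial protein, measured 40.6 to 65.9 CPM in rich, 67.0 to 73.0 CPM in poor and 2.00 to 3.76 CPM in MII libraries. Every rich pool lay below every poor pool for Chchd2, which fell by 4.34 ± 0.21 and 4.57 ± 0.20 log2.

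For other lists the counts with either baseline stand side by side below, with different numbers of libraries and tested members and no test of the difference. The GV sets were drawn on granulosa RNA. On that gap 6 granulosa identity and 7 theca and stroma genes were themselves called higher, so these counts are a description and nothing is read from their contrast. Over all genes tested, 14.9% were lower in MII with rich and 5.4% with poor pools. Of theca and stroma genes 12 of 16 were lower in MII than in rich pools and 0 of 11 than in poor pools by edgeR. At an unadjusted p of 0.05, 2 of these 11 were lower and 1 higher than in poor pools, and DESeq2 called 1 in each direction. Of granulosa identity genes 12 of 20 were lower with rich and 2 of 17 with poor pools, with medians of -2.69 and 0.13. Of cytoskeleton and matrix genes 18 of 28 were lower with rich and 2 of 26 with poor pools. Of 20 antioxidant genes 10 were lower with rich and 1 (Prdx2) with poor pools, with medians of -0.90 and -0.61. Of 17 glycolysis genes 8 were lower with rich and 1 (Ldhb) with poor pools, with medians of -0.78 and -0.29. With the poor pools DESeq2 called 5 antioxidant and 3 glycolysis genes lower, and 6 and 3 were lower at an unadjusted p of 0.05 by edgeR. With 3 rich pools of 1 strain each, 16 cytoskeleton and 8 or 9 antioxidant genes were lower. The difference of Actb, itself among the genes called higher in rich pools, was -0.57 log2 with rich and 0.70 log2 with poor pools, against the same MII libraries.

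**Figure D5:**
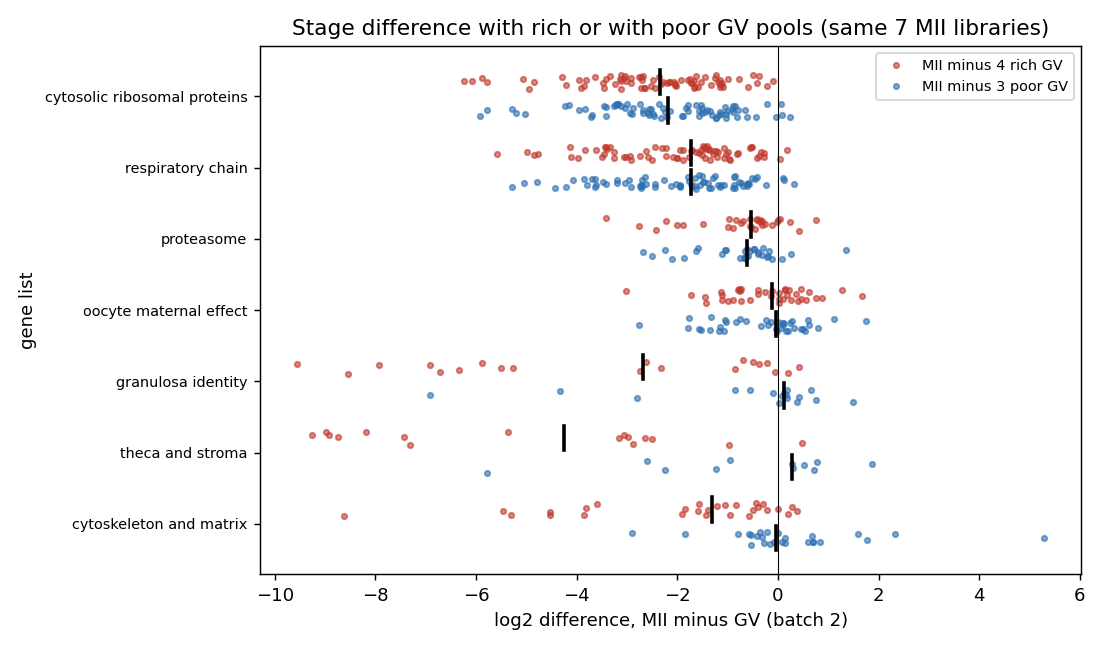
Log2 difference of MII minus GV in batch 2 (horizontal axis) for the tested members of 7 lists, with the 4 rich pools (red) or the 3 poor pools (blue) as the GV side and a black bar at each median. Ribosomal protein medians are -2.34 and -2.18, and theca and stroma medians are -4.26 and 0.29.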

How the data were processed

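RNA of pooled oocytes was amplified by single primer isothermal amplification, fragmented and turned into libraries in 12 cycles of PCR, read as 50 nt single reads on a different HiSeq model in each batch, per the labels' protocols. The submitters' processing notes name HISAT2, SAMtools, featureCounts of Subread 1.5.1, DESeq2 1.16.1 and the build GRCm38.p4. How strand and multi-mapped reads were handled was not given in the sources used here. Raw counts of reads per gene were what the authors deposited. Of 37444 entries 3 named no gene and were left out, at most 0.0190% of a library's counts, and 36371 of the other 37441 had a RefSeq name in GRCm38.p6. All columns were mapped to samples. Precision is set by 18.7 to 39.7 M counts in the 7 pools and by 3 or 4 pools a set. Reads had no molecular identifiers.

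Library sizes were adjusted with edgeR 4.0.16 by its TMM factors, and values are CPM (counts-per-million) or its log2 after adding a prior count of 3. A gene was called between rich and poor pools at 2-fold or more and no overlap, after a filter of 1 CPM in 3 of 7 libraries. The slope and stage tests used edgeR's quasi-likelihood functions with robust fits, strain as a covariate, filterByExpr and Benjamini-Hochberg adjustment at 0.05. Both were tested on simulated data. An SE is the log2 value divided by the square root of F. The members, the 21 gene lists and the tests were chosen with earlier results of these data known. The text names the markers, the 10 largest and 10 smallest differences among genes with a mean of at least 5 CPM, no overlap and 1 sign in all 3 strains, up to 4 such members per list and the 5 lowest adjusted p per direction of each test, with examples of list members beside these. List members outside that rule, such as Esr2, Gata4, Gja4, Akr1c18, Ccnd2 and Grem1, were picked after their values were seen. A few results on single genes are not reported here. Alternatives were other scalings, filters and prior counts, DESeq2 1.42.0, within-strain differences, a replicate block, each library left out and, added later, each name prefix and 3 rich pools. R 4.3.3, limma 3.58.1, Python 3.11.15 and matplotlib 3.10.9 were used. Each library was a pool from 1 mother, so p-values measure the spread between mothers and their libraries.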

Additional observations from a re-analysis of the deposited data

Results flagged for a closer look

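A gene or list was checked over the 4 rich GV, the 7 batch 2 MII or the 9 batch 1 GV libraries. Of 137 such groups of values, 10 held a library that stood apart from the others by Dixon's criterion at 95%. Chance gives about 1 in 20, but the groups share libraries and genes and are not independent. Levels are log2 CPM. Among the rich pools, Mreg was highest in F1 replicate 2 at 4.51, with the next at 3.94, and Slc25a14 was lowest in B6 replicate 2 at 3.15, with the next at 3.99. Among the MII libraries of batch 2, Inha was highest in B6 replicate 1 at -0.67, with the next at -2.18. The mural and luteinizing list was highest in the same library at 1.76, with the next at 0.83, and so was the steroid synthesis list at 2.84, with the next at 2.36. Inhbb was highest in D2 MII replicate 1 at -0.37, with the next at -2.29, and Gstm1 in D2 MII replicate 2 at -0.64, with the next at -2.41. The respiratory chain list was lowest in F1 MII replicate 2 at 1.60, with the next at 1.88. Among the GV libraries of batch 1, the glycolysis list was highest in F1 replicate 5 at 4.97, with the next at 4.43, and so was the list of contact genes at 5.90, with the next at 5.52.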

How the results depend on the processing

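Of 636 higher and 35 lower calls between rich and poor pools, no filter gave 1282 and 108, a filter at 5 CPM gave 206 and 4, and within-strain differences gave 1116 and 180. The lower count was 18 with total counts alone, 15 with scaling on the oocyte lists, and 226 and 207 within the name prefixes. Leaving out 1 library gave 529 to 896 higher and 55 to 135 lower. Scaling alternatives shared at least 623 of the 636. Of 57 rising and 1 falling slopes in batch 1, no filter gave 208 and 30, DESeq2 gave 301 and 27, a level from the granulosa identity list gave 0 falling, and leaving out the 2 libraries farthest from the median level gave 96 and 175. Leaving out 1 library gave 14 to 233 rising and 0 to 370 falling. For MII minus GV, 1699 higher and 2552 lower genes became 829 and 1038 without the rich pools, and 1245 to 1942 and 1706 to 2968 with 1 library left out. Xist, called on the gap between the sets and so given with no test, was at -4.26 with all 7 GV libraries and at 1.13 without the 4 rich ones. With a replicate block 1341 genes were higher and 1502 lower. Over 13456 genes, deviations of GV and MII libraries with the same number correlated at 0.146 in D2 and at -0.033 and -0.027 in F1. In B6 the values were -0.177 and -0.144. With 2 or 3 libraries in a group, these correlations cannot decide whether the numbers pair the samples. The causes of these changes were not tested, beyond the fewer genes or libraries that filters and omissions leave. Among single genes and list medians 1772 values had the same direction and side of the threshold or moved within the spread, 91 moved further, 30 were weaker and 1, Xist, was reversed. Among the markers depth limits Foxl2, since its poor pools held 3, 0 and 20 counts.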

Other observations

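The poor pools held some RNA that was far lower in MII oocytes. These genes were picked after their values were seen. Ccnd2, the cyclin that granulosa cells use to divide, measured 42.5, 18.2, 56.6 and 24.4 CPM in the rich and 15.9, 35.6 and 11.1 CPM in the poor pools, and the sets overlapped. In the MII libraries of batch 2 it ran from 0.0416 to 0.849 CPM. From the poor pools to MII it fell by 6.92 ± 0.52 log2 (adjusted p = 2.25e-07, edgeR) and had no slope past the threshold in batch 1 (0.22 ± 0.17, adjusted p = 0.767, edgeR). Grem1, a secreted BMP antagonist of cumulus cells, measured 132, 29.0, 35.2 and 6.93 CPM in the rich and 19.8, 7.63 and 43.0 CPM in the poor pools. The rich F1 replicate 3 lay below all poor pools for Grem1, although it was above them for Hsd3b1, Lhcgr and Inha. Grem1 ran from 0.0384 to 4.51 CPM in MII libraries and, against the poor pools, fell by 4.13 ± 0.74 log2 (adjusted p = 0.00275, edgeR). Inhba, whose level helped to define the poor pools and which is given with no test, measured 19.4, 66.7 and 27.0 CPM there and 1.69 to 14.2 CPM in MII libraries. These genes had different orders among the 7 pools, and what cells or stored messages they came from was not tested.

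The GV pools of batch 2, rich and poor alike, and the GV libraries of batch 1 differed in a globin RNA. Hbb-bs, the adult beta globin of red cells, was at 0 to 0.123 CPM in all 7 pools of batch 2 and at 0.194 to 196 CPM in the GV libraries of batch 1. The summed list of blood, immune and endothelial genes ran from 59.6 to 643 CPM in those libraries. That range overlapped the 54.4 to 75.8 CPM of the rich and the 31.9 to 85.3 CPM of the poor pools.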
